A study of Homo sapiens with 6 samples.

Results

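The transcription factors that give urothelial cells their identity were followed in HT-1376, a human bladder carcinoma line established in culture, with and without silencing of SHMT2. The 9 genes were GATA3, FOXA1, PPARG, GRHL2, GRHL3, ELF3, KLF5, TP63 and FOXQ1, named by symbol and matched to Ensembl identifiers through GENCODE release 44, and all 9 were found among the 63241 genes with deposited values. The siNC cells (genotype labelled WT) received a non-targeting siRNA and the siSHMT2 cells (labelled as SHMT2 knockdown) a single siRNA against SHMT2. Both were transfected by lipofection and collected a day later. Each group held 3 libraries of captured mRNA made with a strand-specific kit, which the study calls biological replicates. The sources used here do not say whether they came from separate cultures, so that p-values measure the spread between these libraries, which may be technical.

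The urothelium is the stratified lining of the bladder, in which basal cells renew the tissue and luminal cells at the surface carry plaques of uroplakin proteins. GATA3, FOXA1 and PPARG are known for the luminal programme, and PPARG binds DNA together with a retinoid X receptor such as RXRA. GRHL2 and GRHL3 are grainyhead factors that keep epithelial junction genes active, ELF3 is an ETS factor of epithelial differentiation, and KLF5 is a zinc finger factor of proliferating epithelium. TP63 is the master factor of basal cells, and FOXQ1 is a forkhead factor.

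The counts of a library summed to a total between 533689 and 890574, and the median tested gene had 24.5 counts per library. The study describes many more sequenced reads per sample than the table holds, so these low totals are those of the counted reads and not the sequencing depth. SHMT2, the target of the siRNA, had 28, 15 and 20 counts in siNC replicates 1 to 3 and 9, 2 and 5 counts in siSHMT2 replicates 1 to 3, so that the groups did not overlap. Its log2 fold change was -1.78 (standard error 0.48, adjusted p = 0.93, edgeR). It came to -2.58 when siSHMT2 replicate 1 was left out and to -1.31 when siSHMT2 replicate 2 was left out. The library of siSHMT2 replicate 1 had the lowest total count and stood apart on the first principal component of log2 CPM. Here log2 CPM is the log2 of counts scaled to the library total after its adjustment by a TMM factor (0.948 to 1.03). The library of siNC replicate 2 stood apart on the second component. Both libraries were kept, and the values without either are given for each factor whose direction or call they changed.

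The strand setting used in counting is not given in the sources used here, which bears on what a count stands for. MALAT1 and TALAM1 are lncRNA genes on opposite strands of the same locus, of which MALAT1 is known as the abundant transcript. TALAM1 had 138110 counts over the 6 libraries and MALAT1 had 1916. GAPDH had 4491 counts, and a lncRNA gene on its opposite strand, ENSG00000269968, had 7896. All 422 exonic bases of that lncRNA gene lie within exons of GAPDH. Scaled to length, its mean was 4118 FPKM against 574 for GAPDH. The MALAT1 pair was chosen after its values were seen. Whether the counts of a gene stand for its own strand or for the other cannot be told apart from these values, and the part of strand in the results was not tested.

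Markers of bladder epithelium were present in both groups. Of 11 epithelial markers 10 had counts, led by the keratin gene KRT8. Its FPKM, the count scaled to gene length in kilobases and to the summed counts of the library, was 1056 ± 64.0 in siNC libraries and 1063 ± 16.9 in siSHMT2 libraries (SD, n = 3 each). Among the defining uroplakin genes UPK3A had 0 counts in every library, UPK2 had 1 count in total and UPK1B had 891. The defining immune markers PTPRC and CD3E had 0 counts in every library. The summed level per library was 0 to 1.07 FPKM for 3 endothelial markers, with VWF at 0, and 0.276 to 1.88 FPKM for 6 markers of fibroblasts and smooth muscle, with DCN, PDGFRB and DES at 0. Neuroendocrine markers summed to 1.33 to 5.46 FPKM, with INSM1 at 0.

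The levels of the 9 factors differed widely. GATA3 had the highest mean FPKM over the 6 libraries, 20.1, and its lowest library (14.7) lay above the highest library of ELF3 (10.6). ELF3 came next with a mean of 9.33 FPKM, followed by TP63 with 5.53, KLF5 with 4.56, GRHL2 with 4.47, PPARG with 1.73, GRHL3 with 1.37 and FOXQ1 with 0.211, and FOXA1 was at 0. From ELF3 downward each gene overlapped the next in its range over the libraries, so GATA3 and ELF3 were the only neighbours that lay apart. Among all tested genes GATA3 stood at percentile 70.6 of mean FPKM, ELF3 at 49.8 and PPARG at 2.78. The luminal factors thus lay at both ends of the order, with GATA3 at the top and PPARG and FOXA1 near the bottom.

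**Figure D1:**
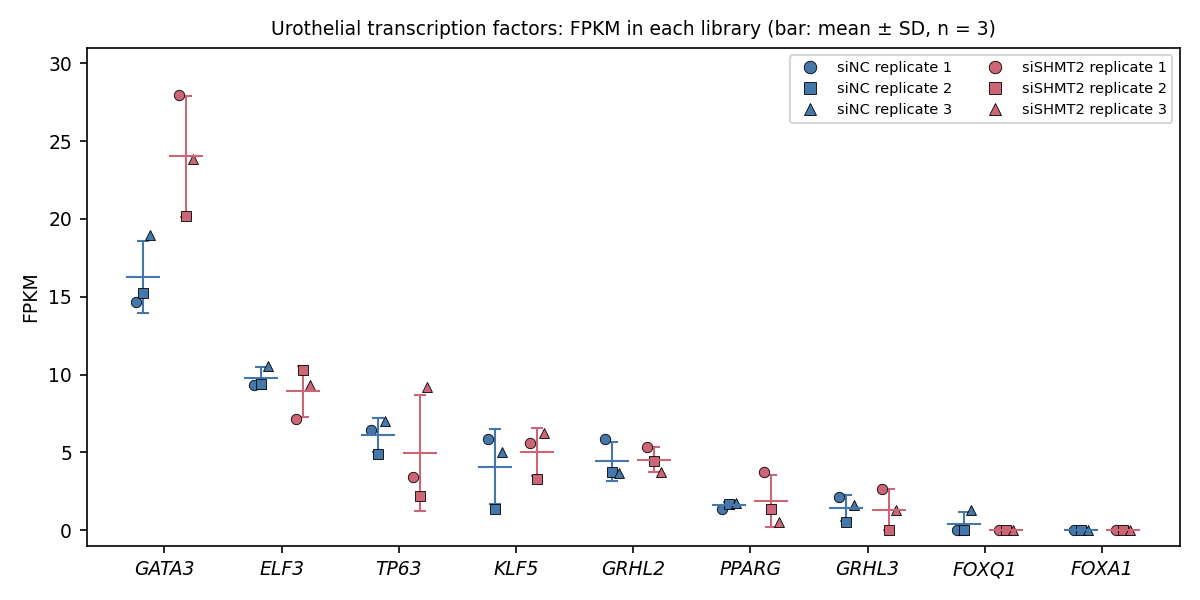
FPKM of the 9 transcription factor genes (vertical axis) in each library, ordered by mean level (horizontal axis), with siNC in blue and siSHMT2 in red. Symbols mark the replicates, and bars give the mean ± SD of 3 libraries. The siSHMT2 libraries of GATA3 (20.2 to 28.0) lie above its siNC libraries (14.7 to 18.9), and the groups overlap for the other genes with counts.

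The comparison of siSHMT2 with siNC by edgeR's quasi-likelihood test covered 7207 genes that had enough counts, and 5 of the 9 factors were among them. GATA3, GRHL2, ELF3, KLF5 and TP63 were tested, whereas PPARG, GRHL3, FOXQ1 and FOXA1 fell below the filter. No factor reached an adjusted p of 0.05 (edgeR with Benjamini-Hochberg adjustment, smallest adjusted p 1.00), and none of all tested genes did with a fold change over 1.5 (0%, and 0 genes with DESeq2). By unadjusted p below 0.05, 1 of the 5 passed, against 3.84% of all tested genes, and this gene, GATA3, also passed with DESeq2 (unadjusted p = 0.0488). With a fold change above 1.5 in addition, 0 of the 5 passed, against 2.68% of all tested genes. The groups did not overlap in log2 CPM for 1 of the 5, against 9.20% of all tested genes. That gene was higher in siSHMT2 (4.65% of all tested genes were), and 0 of the 5 were lower without overlap (4.55% of all tested genes). The values were higher in siSHMT2 for 3 genes and lower for 2, with a median log2 fold change of 0.01, beside -0.00 over all tested genes.

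GATA3 (ENSG00000107485, chromosome 10, 8045378 to 8075198, plus strand, GRCh38 as for all positions) encodes a zinc finger factor that holds luminal identity, and it had higher values in siSHMT2. Replicates 1 to 3 of siNC had 37, 31 and 52 counts and those of siSHMT2 had 46, 51 and 60. Scaled to depth and length, these came to 14.7, 15.2 and 18.9 FPKM in siNC and 28.0, 20.2 and 23.9 FPKM in siSHMT2. Every siSHMT2 library was above every siNC library, with siSHMT2 replicate 1, the library with the lowest total count, the highest. The mean was 16.3 ± 2.32 FPKM across siNC libraries and 24.0 ± 3.88 FPKM across siSHMT2 libraries (SD, n = 3 each). An exact permutation test of these means gave a two-sided p of 0.1, the least that 3 libraries against 3 can reach. The log2 fold change was 0.54 (standard error 0.23, 95% interval 0.08 to 1.00 for this gene alone), or 1.45-fold. Its unadjusted p was 0.0225, at rank 118 of the tested genes, and its adjusted p 1.00 (edgeR), so the difference did not pass the test over all genes. Without siSHMT2 replicate 1 the log2 fold change was 0.44 and the unadjusted p 0.0842, and without siNC replicate 1 they were 0.46 and 0.0852 (edgeR). In bulk libraries more or fewer cells of a type and more or less RNA per cell cannot be told apart.

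FOXA1 (ENSG00000129514, chromosome 14, 37589552 to 37596059, minus strand), a pioneer factor that opens luminal enhancers, had 0 counts in all 6 libraries. A count of 0 allows up to 3 counts per library, or a share of up to 0.000337% of the counts of the library with the highest total and 0.000562% of that with the lowest (counting error only). Any level below that was not detectable in either group.

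PPARG (ENSG00000132170, chromosome 3, 12287368 to 12434356, plus strand), a nuclear receptor of luminal differentiation, had 5, 5 and 7 counts in siNC and 9, 5 and 2 counts in siSHMT2. The siSHMT2 libraries reached beyond the siNC libraries on both sides, at 3.73, 1.35 and 0.542 FPKM against 1.35, 1.67 and 1.74 FPKM. Fitted without the filter on low counts, PPARG gave 0.10 on the log2 scale (standard error 0.63, 95% interval -1.15 to 1.34, edgeR). Leaving out siSHMT2 replicate 1 turned it to -0.70, and leaving out siSHMT2 replicate 3 gave 0.58.

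TP63 (ENSG00000073282, chromosome 3, 189631389 to 189897276, plus strand), the p53 family member of basal cells, varied more within siSHMT2 than between the groups. Its counts were 26, 16 and 31 in siNC replicates 1 to 3 and 9, 9 and 37 in siSHMT2 replicates 1 to 3. In FPKM this was 6.43, 4.90 and 7.04 in siNC and 3.41, 2.22 and 9.18 in siSHMT2. Replicates 1 and 2 of siSHMT2 were the lowest of the 6 libraries and replicate 3 was the highest, so the groups overlapped. The mean was 6.12 ± 1.10 FPKM across siNC libraries and 4.94 ± 3.72 FPKM across siSHMT2 libraries (SD, n = 3 each, two-sided p = 0.7 by exact permutation). The log2 fold change was -0.28 (standard error 0.36, 95% interval -1.02 to 0.45), with an adjusted p of 1.00 (edgeR). Without siSHMT2 replicate 3 it was -1.15, with an unadjusted p of 0.00789 and an adjusted p of 0.69, and without siSHMT2 replicate 2 it was 0.09 (edgeR).

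GRHL2 (ENSG00000083307, chromosome 8, 101492439 to 101669726, plus strand), a grainyhead factor of cell junctions, had 25, 13 and 17 counts in siNC and 15, 19 and 16 counts in siSHMT2. The mean was 4.42 ± 1.24 FPKM across siNC libraries and 4.52 ± 0.813 FPKM across siSHMT2 libraries (SD, n = 3 each). All siSHMT2 libraries lay within the FPKM range of siNC. The log2 fold change was 0.01 (standard error 0.35, edgeR), and its 95% interval of -0.70 to 0.73 still held fold changes from 0.615 to 1.66. It ranged from -0.14 without siNC replicate 3 to 0.26 without siNC replicate 1, and it was -0.10 without siSHMT2 replicate 1 and -0.04 without siNC replicate 2.

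GRHL3 (ENSG00000158055, chromosome 1, 24199558 to 24364482, plus strand), the grainyhead factor of surface barriers, had 5, 1 and 4 counts in siNC and 4, 0 and 3 counts in siSHMT2. Its counts were lowest in siNC replicate 2 and siSHMT2 replicate 2. The summed counts of GRHL3, scaled to the summed depth of each group, gave a ratio of 0.765 for siSHMT2 over siNC (exact 95% interval 0.247 to 2.23, counting error only). Its log2 fold change without the filter was -0.29 (standard error 0.92), and without siSHMT2 replicate 2 it was 0.32 (edgeR).

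ELF3 (ENSG00000163435, chromosome 1, 202007945 to 202017183, plus strand) had 38, 31 and 47 counts in siNC and 19, 42 and 38 counts in siSHMT2. In FPKM this was 9.30, 9.40 and 10.6 for siNC and 7.13, 10.3 and 9.34 for siSHMT2. The siSHMT2 replicate 1 was the lowest library, and the other 5 lay within 9.30 to 10.6 FPKM. The mean was 9.76 ± 0.704 FPKM across siNC libraries and 8.91 ± 1.61 FPKM across siSHMT2 libraries (SD, n = 3 each). The log2 fold change of ELF3 was -0.10 (standard error 0.26, 95% interval -0.62 to 0.41, edgeR), and 0.01 without siSHMT2 replicate 1.

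KLF5 (ENSG00000102554, chromosome 13, 73054976 to 73077541, plus strand) had 16, 3 and 15 counts in siNC and 10, 9 and 17 counts in siSHMT2. The lowest library was siNC replicate 2, the library that stood apart on the second principal component. The mean was 4.08 ± 2.39 FPKM across siNC libraries and 5.03 ± 1.55 FPKM across siSHMT2 libraries (SD, n = 3 each). The log2 fold change of KLF5 was 0.25 (standard error 0.46, 95% interval -0.67 to 1.17, edgeR), and -0.08 without siNC replicate 2. FOXQ1 (ENSG00000164379, chromosome 6, 1312098 to 1314758, plus strand) had 3 counts in siNC replicate 3 and 0 in the other 5 libraries. The scaled ratio of its counts was 0, with an exact 95% interval up to 2.64 (counting error only), so no direction could be given.

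**Figure D2:**
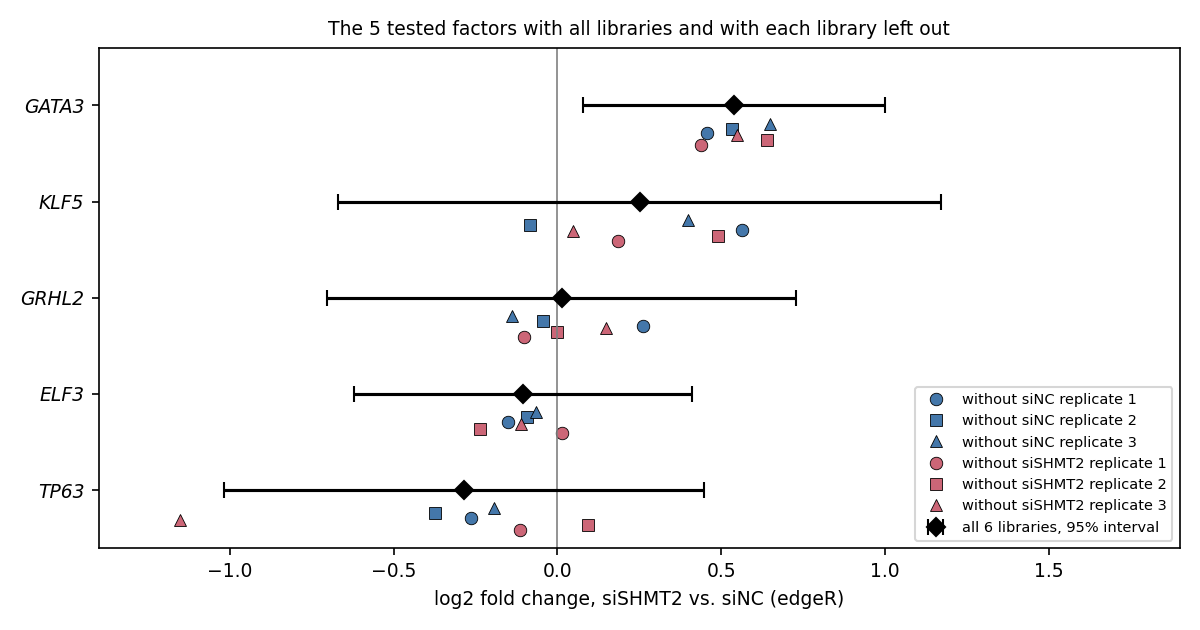
Log2 fold change of siSHMT2 vs. siNC (horizontal axis, edgeR) for the 5 tested factors, with diamonds and bars for all 6 libraries and their 95% interval, and coloured symbols for the fits that each left out 1 library. GATA3 stays between 0.44 and 0.65, whereas TP63 ranges from -1.15 to 0.09.

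The exons of the 9 factors were compared with exons on the opposite strand. Exons of ELF3-AS1, a lncRNA gene, cover 664 exonic bases of ELF3 (9.24%). The opposite strand covers 50 exonic bases of GRHL2 (0.826%) and 16 of FOXA1 (0.362%), both from genes with 0 counts, and none of GATA3, PPARG, GRHL3, KLF5, TP63 and FOXQ1. ELF3 was therefore the only factor that shared exonic bases with an opposite-strand gene that had counts.

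ELF3-AS1 (ENSG00000234678) held more counts than ELF3 in every library, 225, 194 and 213 in siNC and 157, 230 and 261 in siSHMT2. In total it had 1280 counts against 215 for ELF3, a ratio of 5.95. Its log2 fold change was 0.15 (standard error 0.13, 95% interval -0.12 to 0.43, edgeR). All 664 overlapping bases belong to 1 of the 10 ELF3 transcripts in GENCODE, and the MANE Select transcript of ELF3 overlaps ELF3-AS1 by 0 bases.

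A lncRNA gene on the opposite strand of GRHL2, ENSG00000289048, starts 137 bases from it and had 2, 2 and 11 counts in siNC and 4, 6 and 5 counts in siSHMT2, 30 in total against 105 for GRHL2. GATA3-AS1 lies within GATA3 on the opposite strand without sharing exonic bases, and it had 11 counts in total against 277 for GATA3. It was named after its values were seen. The neighbours of GRHL2 and GATA3 thus held fewer raw counts in total than these genes, unlike the neighbour of ELF3. Raw counts do not allow for gene length. In mean FPKM over the 6 libraries ENSG00000289048 stood at 6.19 against 4.47 for GRHL2, and below GRHL2 only in siNC replicates 1 and 2. GATA3-AS1 stood at 1.11 against 20.1 for GATA3, and ELF3-AS1 at 53.6 against 9.33 for ELF3.

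**Figure D3:**
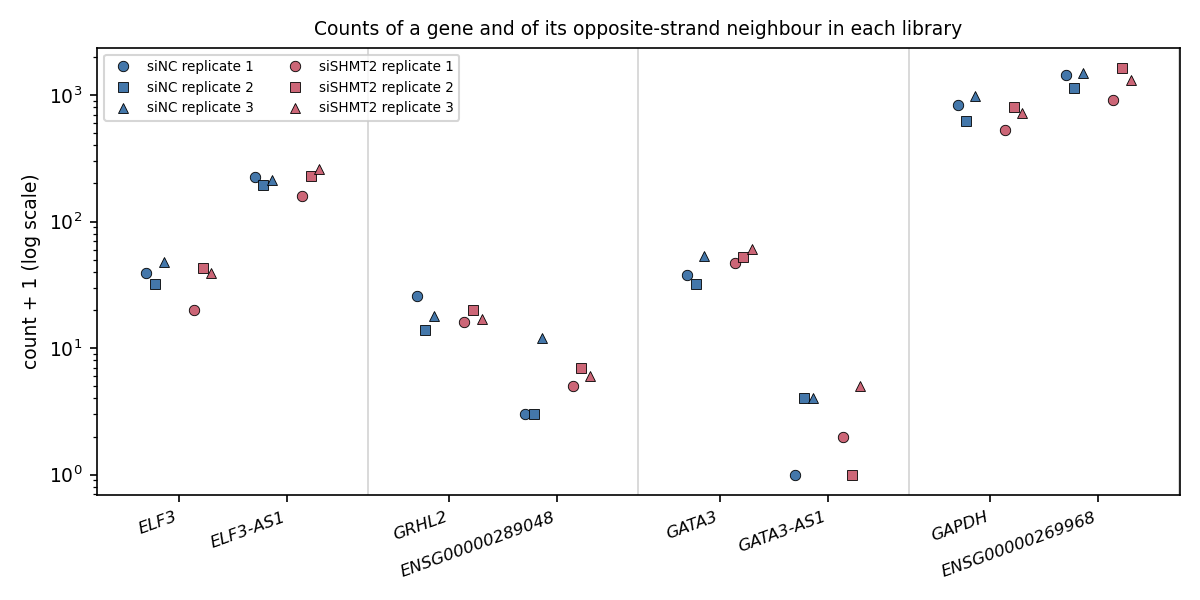
Counts plus 1 on a log scale (vertical axis) of ELF3, GRHL2, GATA3 and GAPDH and of an opposite-strand neighbour of each (horizontal axis), in every library, with siNC in blue, siSHMT2 in red and symbols for the replicates. ELF3-AS1 (157 to 261 counts) lies above ELF3 (19 to 47 counts) in each library, whereas the neighbour of GATA3 lies below it.

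The sequences in front of ELF3 and GATA3 are shown because ELF3 shares its start region with a gene of the other strand and GATA3 has the highest level of the 9. The first is the whole stretch between the starts of ELF3-AS1 and of the MANE Select transcript of ELF3, which lie 124 bases apart and point away from each other (chr1:202010464-202010586, plus strand). The second holds the 250 bases before the start of a GATA3 transcript (chr10:8054438-8054687, plus strand). Both come from RefSeq's promoter table (GRCh38.p14). Capitals mark 3 motifs on either strand, the TATA box TATAAA as well as the box named CCAAT and the GC box GGGCGG.
ELF3: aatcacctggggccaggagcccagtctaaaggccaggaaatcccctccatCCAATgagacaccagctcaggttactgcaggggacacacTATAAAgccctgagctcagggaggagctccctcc
GATA3: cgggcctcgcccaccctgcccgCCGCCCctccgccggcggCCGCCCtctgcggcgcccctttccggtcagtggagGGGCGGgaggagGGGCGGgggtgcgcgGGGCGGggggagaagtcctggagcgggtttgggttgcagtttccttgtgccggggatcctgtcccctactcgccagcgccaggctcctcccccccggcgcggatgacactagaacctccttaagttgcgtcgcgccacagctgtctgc

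The ELF3 stretch has a GC content of 57.7%. It holds 1 TATA box, 34 bases before the start, and 1 CCAAT box, 73 bases before it, and the letters of the GC box are not in it. The GATA3 stretch has a GC content of 73.6% and holds the GC box 5 times, 3 on the plus strand and 2 on the minus strand, and neither of the others. Among all 35116 windows of 300 bases in the table, the TATA box is found in 11.5%, the CCAAT box in 34.6% and the GC box in 45.0%. These windows hold 250 bases before a start and 50 after it. Both stretches are shorter (123 bases for ELF3 and 250 for GATA3), so the shares are not matched to them in length. These matches describe letters, and binding was not measured.

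Other genes of urothelial identity were described by fixed lists. Of 23 other epithelial and urothelial transcription factors 11 were tested, with 6 higher and 5 lower in siSHMT2 and a median log2 fold change of 0.00. KLF3, a zinc finger repressor, was the 1 gene of this list with an unadjusted p below 0.05 and over 1.5-fold change, beside 2.68% of all tested genes. It had 18, 13 and 19 counts in siNC and 19, 20 and 34 in siSHMT2. Its log2 fold change was 0.68 (standard error 0.33, unadjusted p = 0.0453, adjusted p = 1.00, edgeR). With DESeq2 the unadjusted p was 0.0951, and without siSHMT2 replicate 3 the log2 fold change of KLF3 was 0.49. When libraries were left out in turn, the unadjusted p of KLF3 was below 0.05 without siSHMT2 replicate 2 and above it without any other library. KLF3-AS1 covers 3.91% of its exonic bases and had 12 counts in total.

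In log2 CPM the groups did not overlap for 3 of these 11 genes, KLF3 (higher in siSHMT2) and RXRA and SOX9 (lower), beside 9.20% of all tested genes (4.65% higher and 4.55% lower). RXRA, the partner of PPARG, stood at 11.2 ± 0.480 FPKM across siNC libraries and 9.50 ± 0.646 FPKM across siSHMT2 libraries (SD, n = 3 each). Its log2 fold change of -0.22 (standard error 0.23, edgeR) was smaller than its standard error. SOX9, a factor of progenitor cells that was named after its values were seen, had -0.34 (standard error 0.44). Of the abundant members, KLF4, a differentiation factor, had -0.38 as its log2 fold change (standard error 0.23), GATA2, a relative of GATA3, had 0.34 (standard error 0.25), and TFAP2C, an AP-2 factor, had -0.12 (standard error 0.34).

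The luminal list held no gene with an unadjusted p below 0.05 (edgeR), beside 3.84% of all tested genes. Of its 18 genes 6 had 0 counts in every library and 8 were tested, 3 higher and 5 lower, with log2 fold changes from -0.15 to 0.13. KRT8, KRT18, KRT7 and KRT19, keratins of simple epithelium, were its most abundant genes, with log2 fold changes of 0.01, -0.08, 0.04 and -0.15. Among the 22 basal and squamous genes 16 were tested, 9 higher and 7 lower, again with 0 at an unadjusted p below 0.05, beside the same 3.84%. KRT14, the basal keratin, stood at 435 ± 64.9 FPKM across siNC libraries and 404 ± 41.2 FPKM across siSHMT2 libraries (SD, n = 3 each), and its log2 fold change of -0.11 (standard error 0.11) lay within the error. SFN, an epithelial 14-3-3 protein, had a log2 fold change of 0.05, and SPRR1B, a cornified envelope gene, had 0.06.

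Of 18 epithelial adhesion and splicing genes 14 were tested, 9 higher and 5 lower, with a median log2 fold change of 0.07. The most abundant were the desmosome genes JUP (log2 fold change -0.00, standard error 0.15) and DSP (0.10, standard error 0.12), the tight junction gene CLDN1 (0.20, standard error 0.18) and the membrane protease gene ST14 (0.27, standard error 0.21). ESRP1, a splicing factor of epithelial cells, was the 1 gene of the 14 with an unadjusted p below 0.05 and over 1.5-fold change, beside 2.68% of all tested genes. It had 23, 32 and 32 counts in siNC and 12, 20 and 18 counts in siSHMT2. ESRP1 stood at 9.95 ± 2.72 FPKM across siNC libraries and 6.10 ± 0.332 FPKM across siSHMT2 libraries (SD, n = 3 each), without overlap. It was also the 1 gene of the 14 without overlap of the groups in log2 CPM, beside 9.20% of all tested genes. Its log2 fold change was -0.68 (standard error 0.32, unadjusted p = 0.0408, adjusted p = 1.00, edgeR). With DESeq2 the unadjusted p was 0.0872, and without siNC replicate 2 the log2 fold change of ESRP1 was -0.43. Among the 6 fits that each left out 1 library, its unadjusted p was below 0.05 only without siNC replicate 1. No exon on the opposite strand covers it.

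Apart from FN1 the mesenchymal genes had few counts in this line. Of its 12 genes 4 had 0 counts, VIM, TWIST2, CDH2 and MMP2, and FN1 was the 1 gene tested. The next in level were TGFBI, a matrix protein gene, with a mean of 1.51 FPKM over the 6 libraries, SNAI2, a repressor of epithelial genes, with 1.30 and SPARC, another matrix gene, with 0.694. FN1, which encodes fibronectin, had 141, 101 and 169 counts in siNC and 82, 108 and 97 counts in siSHMT2. Its groups overlapped in FPKM, at 18.7 ± 2.01 across siNC libraries and 14.7 ± 1.91 across siSHMT2 libraries (SD, n = 3 each). In log2 CPM the groups of FN1 did not overlap, beside 9.20% of all tested genes. This rested on the TMM factors, which FPKM leaves out. The nearest libraries, siNC replicate 2 and siSHMT2 replicate 1, stood at 16.7 and 16.8 FPKM and at 7.41 and 7.34 in log2 CPM. The log2 fold change of FN1 was -0.36 (standard error 0.16, edgeR). Its unadjusted p was 0.0296 and its adjusted p 1.00 (edgeR), beside 3.84% of all tested genes with an unadjusted p below 0.05. With DESeq2 the unadjusted p was 0.06, and without siSHMT2 replicate 3 the log2 fold change was -0.27. In the fits that each left out 1 library, its unadjusted p was below 0.05 without siNC replicate 2 and without siSHMT2 replicate 1, and above it without any of the others.

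Of 12 target genes of PPARG and RXRA 5 were tested, 1 higher and 4 lower, with a median log2 fold change of -0.16 and 0 at an unadjusted p below 0.05 (edgeR, beside 3.84% of all tested genes). PLIN2, a lipid droplet coat gene, had 23, 19 and 26 counts in siNC and 7, 20 and 15 in siSHMT2. It was the 1 gene of these 5 without overlap of the groups in log2 CPM, beside 9.20% of all tested genes, and its log2 fold change came to -0.57 (standard error 0.35, unadjusted p = 0.108, edgeR). Without siSHMT2 replicate 1 the log2 fold change of PLIN2 was -0.41. FABP5, ACSL3 and ACSL1, genes of fatty acid binding and activation, had log2 fold changes of -0.07, 0.18 and -0.16.

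**Figure D4:**
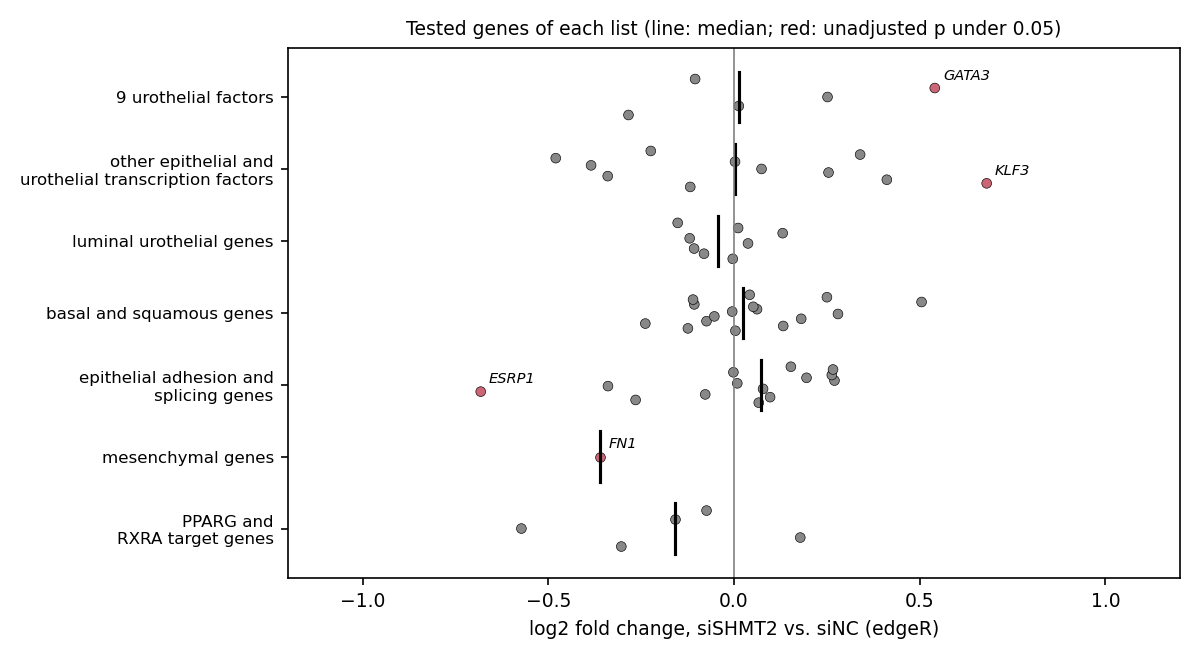
Log2 fold change of siSHMT2 vs. siNC (horizontal axis, edgeR) of each tested gene in the 9 urothelial factors and the 6 other lists (vertical axis), with a line at the median. Genes with an unadjusted p below 0.05 are red and named: GATA3, KLF3, ESRP1 and FN1, each with an adjusted p of 1.00.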

How the data were processed

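The submitters' processing notes name FastQC 0.11.9, fastp 0.23.4, HISAT2 2.2.1 and the build GRCh38. The counting program, how it treated strand, and the annotation are not given in the sources used here. The deposited counts are whole numbers per Ensembl gene without normalization. The deposited FPKM values equal these counts divided by gene length and by the library's summed counts, and 91 genes without a length are at 0.

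All counts were fitted in R 4.3.3 with edgeR 4.0.16 (TMM, filterByExpr, two-sided quasi-likelihood test, no block), adjusted by Benjamini-Hochberg over 7207 genes. Log2 CPM used a prior count of 2, and intervals are at 95%. Single FPKM values were compared by exact permutation tests. The alternatives were DESeq2 1.42.0, limma 3.58.1 after adding 1 or 0.1 to FPKM and taking log2, other scaling, no filter or at least 10 counts in every library, a block for the replicate number, and leaving out each library. GENCODE release 44 gave positions for 62666 genes, and RefSeq's table promoter windows for 8 of the 9 factors. Replicates differed by more than counting noise (chi-square per degree of freedom 1.79 to 2.51).

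The genes named were SHMT2, GAPDH, the 9 factors, opposite-strand genes with at least 10 counts that overlap a factor or start within 1000 bases of it, and from each list the 4 genes with the highest FPKM and those past an unadjusted p of 0.05 and 1.5-fold. Others are marked in the text, and the values of a few listed genes are not reported here. The factors and lists were chosen with earlier results of these data known.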

Additional observations from a re-analysis of the deposited data

How the results depend on the processing

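GATA3 was higher in siSHMT2 under all 15 alternatives, with a log2 fold change of 0.44 to 0.65, an unadjusted p below 0.05 in 13 of them (0.0176 to 0.0852 over all) and an adjusted p of 0.84 to 1.00. The direction of the other 6 fitted factors depended on single libraries. Over the fits without 1 library the log2 fold change ranged from -0.70 to 0.58 for PPARG, -0.14 to 0.26 for GRHL2, -1.10 to 0.32 for GRHL3, -0.24 to 0.014 for ELF3, -0.083 to 0.56 for KLF5 and -1.15 to 0.093 for TP63. The FPKM difference ranged from -0.641 to 0.951, -0.324 to 0.815, -0.776 to 0.546, -1.52 to 0.0464, -0.401 to 1.84 and -3.31 to 0.173 in the same order. With limma on log2(FPKM + 1) without a filter the change of PPARG was -0.0020. FOXQ1 was at 0 throughout without siNC replicate 3.

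Without 1 library, 0 to 1 factors had an unadjusted p below 0.05 with 1.5-fold change, 0 to 2 had such a p at any fold (2 without siSHMT2 replicate 3) and 1 to 2 had groups that did not overlap. Over all tested genes, the adjusted p with 1.5-fold change called 0 to 1 (1 without siSHMT2 replicate 3), the unadjusted p with 1.5-fold change 232 to 309, the unadjusted p at any fold 292 to 412 (412 of 7727 genes without siSHMT2 replicate 3) and groups without overlap 1408 to 1640. With all libraries, the unadjusted p with 1.5-fold change called 193 genes of 7207, against 80 with DESeq2, 607 without the filter, 114 with at least 10 counts in every library and 693 with limma without a filter. The unadjusted p alone called 277 genes, against 117 with DESeq2, 699 without the filter and 795 with limma without a filter. Groups did not overlap for 663 genes, against 1459 without the filter, 429 with at least 10 counts and 1457 with limma without a filter. The number of genes tested was 20836 without the filter, 4774 with at least 10 counts in every library and 20807 with limma without a filter, so these counts rest on different totals.

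At an unadjusted p below 0.05 with 1.5-fold change, the other transcription factors held 1 gene, 0 with DESeq2, without the filter or with any of the limma fits, and 0 to 2 without 1 library. The adhesion and splicing genes held 1, 0 with DESeq2 or with limma at a pseudocount of 1 or 0.1, and 0 to 1 without 1 library. The basal genes held 0, 1 without the filter and 2 with limma without it. The targets of PPARG and RXRA held 0, 1 without the filter or with limma at either pseudocount, and 2 with limma without the filter. With the replicate block GATA3 had a log2 fold change of 0.55 (edgeR, unadjusted p = 0.0245), and no call among the factors or lists changed. The deviations of same-numbered libraries from their group means correlated at -0.0155 to 0.0485, and those of unlike numbers at -0.0311 to 0.0449. Counting noise at these low counts pulls such values towards none, so they cannot show whether the replicate numbers mark pairs.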
